A study of Mus musculus with 4 samples.

Results

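The semaphorins, plexins, ephrins and Eph receptors are 4 families of cell-surface and secreted guidance proteins. Their genes were taken as every row of the deposited table whose symbol names a semaphorin of classes 3 to 7, a plexin, an ephrin or an Eph receptor, a rule that used no measured value. It gave 51 of the 22222 genes in the table: 20 semaphorins, 9 plexins, 8 ephrins and 14 Eph receptors. All 51 passed the filter on low values (2 libraries or more reaching 1 scaled CPM), a filter that 15419 genes passed.

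Semaphorins bind plexins on neighbouring cells. The secreted class 3 semaphorins mostly do so together with the co-receptors neuropilin 1 and neuropilin 2, while the other classes are anchored in the membrane. Plexins act on the cytoskeleton and can repel or attract migrating cells, axons and vessel sprouts. Eph receptors are receptor tyrosine kinases that bind ephrins on an adjacent cell. A-type ephrins are held by a lipid anchor and B-type ephrins span the membrane and can signal back into the cell that carries them. In skin these families are known for guiding nerves and vessels, and Eph receptors and ephrins also for sorting and differentiation of keratinocytes.

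RNA was sequenced from keratoacanthomas of 4 mice, a skin tumour that can regress without treatment. All mice had 20 weeks of the carcinogen DMBA. Tumours were collected 1 week after DMBA was stopped (2 mice) or with DMBA still given (2 other mice, week 0). The cells had been sorted as positive for Tomato and for P-cadherin, a gate for labelled tumour epithelium. The sources used here do not give strain, sex, age, the driver of the Tomato reporter or whether tumours were pooled. Libraries held 5551937 and 7662159 reads at 1 week, against 9678682 and 5635945 on DMBA. Values below are scaled CPM, the authors' CPM against a scaled library size, and paired values are always replicate 1, then replicate 2.

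The marker genes of the sorted epithelium were summed to a lower level than fibroblast markers in 3 of the 4 libraries, so the label and the transcripts differ there, and on-DMBA replicate 1 stood apart from the rest. Krt14, the basal keratin, was at 2644 and 1944 at 1 week, against 26654 and 202 on DMBA. The gene of P-cadherin, Cdh3, reached 42.8 and 30.4 at 1 week, against 325 and 3.23 on DMBA. Summed over 12 epithelial markers the level was 4426 and 3666 at 1 week, against 56574 and 566 on DMBA, and all 12 were highest in on-DMBA replicate 1. The sum of 8 fibroblast markers was 48229.9 and 50715 at 1 week, against 181 and 41947 on DMBA. For 9 macrophage and neutrophil markers it was 5407 and 10019.6 at 1 week, against 64.7 and 13706 on DMBA. For 8 endothelial markers it was 722 and 1628 at 1 week, against 6.77 and 206 on DMBA, and for 6 smooth muscle and pericyte markers 776 and 1429 at 1 week, against 105 and 229.5 on DMBA. The smaller sums of 7 T and NK cell, 5 Schwann cell and 4 melanocyte markers lay between 35.5 and 73.9 at 1 week, against 1.54 to 114 on DMBA. Among the T and NK cell markers Cd4 was at 52.4 and 59.2 at 1 week, against 0.475 and 27.3 on DMBA. The others were at 8.84 or lower in every library. Cd3e was at 1 read in each on-DMBA library (0.119 and 0.179), so the rank of such low markers says little. On-DMBA replicate 1 was the lowest library for 8 of 8 fibroblast, 8 of 9 macrophage and neutrophil, 8 of 8 endothelial, 7 of 7 T and NK cell, 5 of 6 smooth muscle and pericyte, 4 of 5 Schwann cell and 2 of 4 melanocyte markers. Gzmb was listed at 0 there, and no other marker was at 0 in any library. Differences that the results turn on are therefore given with either on-DMBA library left out as well, and the part of these cell types in them was not tested. In such sorted bulk samples fewer cells of a type and less RNA per cell cannot be told apart.

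With all 4 libraries none of the 51 genes passed an adjusted p of 0.05 by limma, in either direction (0 higher and 0 lower; 0.0% of the 15419 genes tested in each direction). At an unadjusted p under 0.05 there were 2 of the 51, Sema6a and Sema3a, both higher at 1 week, a share of 3.92% against 2.48% of all genes. On recovered reads edgeR and DESeq2 also called 0 of them, with 1 and 2 at an unadjusted p under 0.05. The 1-week and on-DMBA libraries did not overlap for 11 genes: 9 were higher at 1 week (17.6% of the 51, against 14.0% of all genes) and 2 were lower (3.92%, against 9.14%). These shares are close to the background for higher genes and below it for lower ones. The median log2 difference, 1 week minus on DMBA, was 0.14 over the 51 genes and -0.024 over all genes tested. By role, 7 of the 9 higher genes were semaphorins, and none of the 8 ephrins or 5 EphB receptors was free of overlap.

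**Figure D1:**
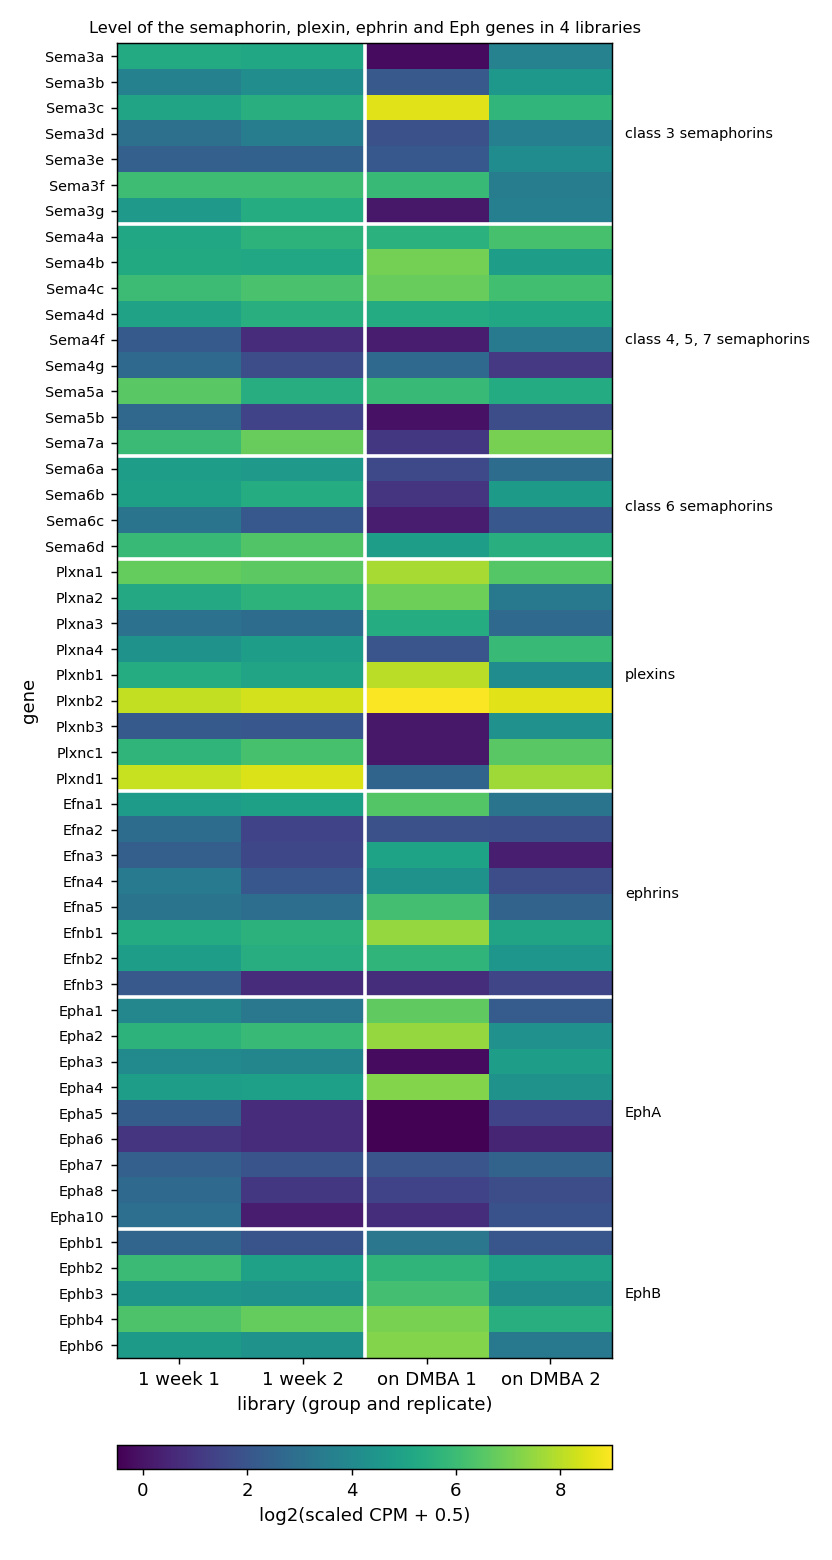
Level of each of the 51 genes, as log2(scaled CPM + 0.5), in the 1-week libraries (left columns) and the on-DMBA libraries (right columns), with rows grouped by role. On-DMBA replicate 1 is the brightest column for genes such as Sema3c (384) and Plxnb1 (261) and the darkest for Plxnd1 (5.46) and Sema7a (1.54), while the 1-week columns look much alike.

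Among the 7 secreted class 3 semaphorins, 3 were higher and 1 was lower at 1 week without overlap. Over all genes tested, 14.0% were higher and 9.14% were lower without overlap. Sema3a, a repulsive cue that binds neuropilin 1, was at 39.1 and 36.5 scaled CPM at 1 week, against 0.356 and 12.6 on DMBA, where the first value is 3 reads. Both 1-week libraries lay above both on-DMBA libraries, with a log2 difference of 3.52 (SE 1.35, adjusted p = 1.00 by limma). Sema3g, which binds neuropilin 2, was at 24.1 and 40.8 at 1 week, against 0.594 and 11.7 on DMBA, a log2 difference of 3.13 (SE 1.25). Sema3f, another ligand of neuropilin 2, was at 65.2 and 65.0 at 1 week, against 58.8 and 10.8 on DMBA. Its log2 difference of 1.34 (SE 0.88) came mostly from on-DMBA replicate 2, the lowest library, and the other on-DMBA library was close to the 1-week level. Sema3c, a neuropilin ligand, went the other way, at 32.4 and 44.2 at 1 week, against 384 and 52.9 on DMBA (log2 difference -1.90, SE 1.01). The high level on DMBA was that of replicate 1, and on-DMBA replicate 2 exceeded the higher 1-week library only slightly.

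Leaving out on-DMBA replicate 1, the differences were 1.55 for Sema3a, 1.39 for Sema3g, 2.54 for Sema3f and -0.48 for Sema3c. With replicate 2 left out in its place they were 5.48, 4.86, 0.15 and -3.33 in the same order. Sema3a, Sema3g and Sema3c passed in limma only without on-DMBA replicate 2 among these 2 settings, and Sema3f only without on-DMBA replicate 1 (adjusted p = 0.000339, up to 1.00 over the alternatives). The groups overlapped for the other 3 genes of the class. Sema3b was at 12.3 and 17.1 at 1 week, against 3.92 and 23.2 on DMBA, and Sema3d was at 7.50 and 10.98 at 1 week, against 3.09 and 11.7 on DMBA. Sema3e, the class 3 ligand that binds plexin D1 directly, was at 4.84 and 4.99 at 1 week, against 3.80 and 17.1 on DMBA. For all 3, on-DMBA replicate 1 was the lowest and on-DMBA replicate 2 the highest library.

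The promoter windows of Sema3a, Sema3g and Sema3c, class 3 ligands without overlap in opposite directions, are shown next to that of Plxnd1, the plexin with the largest difference, because each has 1 start in RefSeq. Each window is the 250 bases before the start on the gene's strand (RefSeq, GRCm38.p6), with capitals marking every match, on either strand, to 5 motifs. The GC box was searched as GGGCGG. The core that TCF and LEF factors bind was searched as CTTTGA. The site of a single retinoid receptor was searched as AGGTCA. The site of AP-1, the Jun and Fos factor, was searched as TGANTCA. The TATA box was searched as TATAAA. No match overlapped another. The windows are chr5:13396534-13396783 (Sema3a, plus strand), chr14:31217623-31217872 (Sema3g, plus strand), chr5:17574566-17574815 (Sema3c, plus strand) and chr6:115995006-115995255 (Plxnd1, minus strand).
Sema3a: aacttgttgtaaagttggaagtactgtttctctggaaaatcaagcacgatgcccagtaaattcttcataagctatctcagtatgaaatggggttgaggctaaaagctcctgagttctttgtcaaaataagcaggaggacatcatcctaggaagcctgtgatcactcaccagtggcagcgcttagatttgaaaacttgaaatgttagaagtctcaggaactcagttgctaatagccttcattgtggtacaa
Sema3g: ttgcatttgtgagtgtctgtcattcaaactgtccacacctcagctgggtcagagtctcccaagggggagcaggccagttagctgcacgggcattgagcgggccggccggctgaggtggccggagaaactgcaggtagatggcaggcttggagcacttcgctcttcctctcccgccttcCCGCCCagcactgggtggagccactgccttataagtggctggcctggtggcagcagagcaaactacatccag
Sema3c: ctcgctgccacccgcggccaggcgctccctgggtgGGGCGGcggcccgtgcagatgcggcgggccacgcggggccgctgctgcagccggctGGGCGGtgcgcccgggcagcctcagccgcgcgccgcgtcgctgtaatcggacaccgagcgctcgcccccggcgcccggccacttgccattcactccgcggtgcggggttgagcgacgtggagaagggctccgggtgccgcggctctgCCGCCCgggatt
Plxnd1: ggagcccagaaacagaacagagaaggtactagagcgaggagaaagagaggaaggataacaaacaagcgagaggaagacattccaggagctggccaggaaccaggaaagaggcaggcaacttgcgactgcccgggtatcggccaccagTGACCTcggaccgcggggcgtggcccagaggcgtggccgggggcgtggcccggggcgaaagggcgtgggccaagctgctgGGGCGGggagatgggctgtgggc

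The Sema3c window was the richest in G and C (78.4%, with 39 CpG dinucleotides) and held 3 GC boxes, 215, 159 and 12 bases before the start. Plxnd1 (64.8%) held 1 GC box and 1 retinoid receptor site, 23 and 103 bases before the start, and Sema3g (60.4%) held 1 GC box 72 bases before it. The Sema3a window (40.8%, with 2 CpG dinucleotides) held none of the searched letters. No RefSeq window was matched for Sema3b, Sema3f, Sema6a, Plxna1, Plxna4 and Efnb3. RefSeq windows were matched for 45 of the 51 genes, 59 windows in all. Of these, 74.6% held a GC box, against 32.7% of 32817 windows of all genes, and their median GC content was 64.0%, against 52.4%. The TCF/LEF core stood in 3.39% of the 59 windows, against 13.8% of all windows, the retinoid receptor site in 11.9%, against 14.0%, AP-1 in 5.08%, against 6.75%, and TATA in 1.69%, against 12.4%. These are matches of letters and no measure of binding.

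All 4 class 6 semaphorins, transmembrane ligands of class A plexins, were higher at 1 week without overlap, against 14.0% of all genes tested. It was the one role class in which no gene overlapped, though a class of only 4 genes. For Sema6c the lack of overlap rests on 27 reads (3.85) in 1-week replicate 2, against 21 reads (3.77) in on-DMBA replicate 2. A gap this small could turn with another scaling, so its place in this count is not secure. Sema6a, which binds plexins A2 and A4, was at 26.9 and 24.1 scaled CPM at 1 week, against 2.49 and 6.82 on DMBA. The log2 difference of 2.47 (SE 0.72, adjusted p = 1.00 by limma) had the smallest unadjusted p of the 51 genes. Leaving out on-DMBA replicate 1 gave 1.83 and leaving out replicate 2 gave 3.12, and Sema6a was the only gene of the 51 called higher in both of these fits (limma adjusted p = 0.0286 and 3.39e-07, up to 1.00 over the alternatives). Sema6d, a ligand of plexin A1, was at 61.1 and 84.6 at 1 week, against 27.7 and 43.4 on DMBA, a log2 difference of 1.04 (SE 0.53). It was 0.72 and 1.36 without on-DMBA replicate 1 or 2, in neither case passing. Sema6b was at 29.4 and 40.8 at 1 week, against 1.42 and 25.3 on DMBA, and Sema6c was at 8.44 and 3.85 at 1 week, against 0.712 and 3.77 on DMBA. For both genes the gap to on-DMBA replicate 2 was small, with log2 differences of 0.44 and 0.55 without on-DMBA replicate 1, compared with 2.32 (SE 1.29) and 1.46 (SE 0.94) with all 4 libraries. All 4 genes had their lowest level in on-DMBA replicate 1, as did 37.5% of all genes tested.

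**Figure D2:**
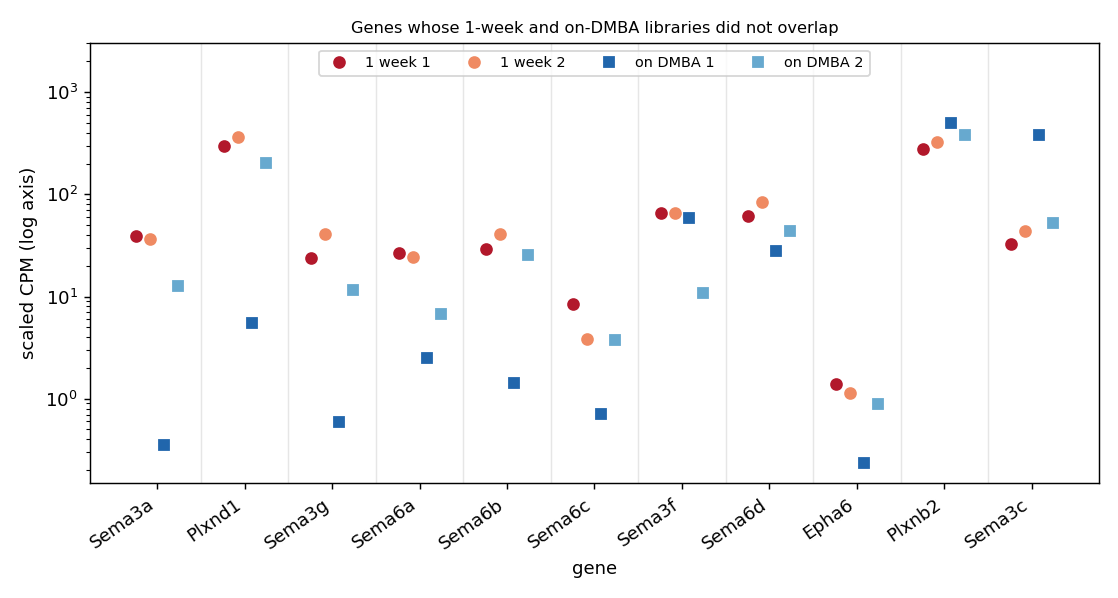
Scaled CPM on a log axis for the 11 genes whose groups did not overlap, with circles for the 1-week libraries and squares for the on-DMBA libraries. Sema6a sits at 26.9 and 24.1 at 1 week, against 2.49 and 6.82 on DMBA. For Sema6b the nearest on-DMBA library (25.3) lies close to the lower 1-week library (29.4), and for Sema6c the 2 nearly coincide (3.77 and 3.85).

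The 9 semaphorins of classes 4, 5 and 7 all overlapped between the groups, where 14.0% of all genes tested were higher and 9.14% lower without overlap. Sema7a, a lipid-anchored ligand of plexin C1 and of integrin beta 1, was at 61.9 and 111 at 1 week, against 1.54 and 133 on DMBA. Its highest and lowest levels were thus those of the on-DMBA libraries, and its log2 difference was 2.33 with all libraries, -0.69 once on-DMBA replicate 1 was left out and 5.35 once replicate 2 was. Sema4b was at 37.8 and 35.1 at 1 week, against 128 and 27.3 on DMBA, and was called lower without on-DMBA replicate 2. Sema4c, a transmembrane ligand of plexin B2, was at 64.2 and 76.3 at 1 week, against 109 and 70.0 on DMBA. Sema4d, a ligand of plexin B1 and of CD72 on lymphocytes, was at 30.9 and 44.4 at 1 week, against 40.0 and 36.3 on DMBA (log2 difference -0.039, SE 0.51). Sema4a, which acts in immune cells, was at 35.6 and 49.6 at 1 week, against 47.0 and 75.7 on DMBA. Sema5a, which carries thrombospondin repeats, was at 94.2 and 42.2 at 1 week, against 59.1 and 39.7 on DMBA. The remaining Sema4f, Sema4g and Sema5b stayed between 0.475 and 10.2 in every library.

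Plexins, the receptors of the semaphorins, split into genes high and genes low in on-DMBA replicate 1. Plxnd1, the receptor of Sema3E known for its part in vessel patterning, was at 294 and 361 scaled CPM at 1 week, against 5.46 and 202 on DMBA. The groups did not overlap (log2 difference 3.23, SE 1.64), but the gap to on-DMBA replicate 2 was small beside that to replicate 1, and the difference without on-DMBA replicate 1 was 0.69 (adjusted p = 1.00). Plxnc1, the receptor of Sema7A, was at 52.2 and 75.3 at 1 week, against 0.594 and 94.4 on DMBA, and Plxna4, a class A plexin, at 19.8 and 27.7 at 1 week, against 3.56 and 59.4 on DMBA. In both, the on-DMBA libraries lay on either side of the 1-week libraries. Plxnb3 did likewise, at 4.06 and 3.71 at 1 week, against 0.594 and 19.4 on DMBA, and was called lower without on-DMBA replicate 1 (log2 difference -2.18, adjusted p = 0.0202, up to 1.00 over the alternatives).

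Plxnb2, a plexin of many epithelia, was at 278 and 326 at 1 week, against 494 and 384 on DMBA. It was lower at 1 week without overlap, though by a log2 difference of -0.53 (SE 0.58) that did not pass. Plxnb1, the receptor of Sema4D, was at 41.1 and 32.5 at 1 week, against 261 and 16.9 on DMBA. The class A plexins Plxna1, Plxna2 and Plxna3 had the same shape. Plxna1 was at 107 and 95.8 at 1 week, against 218 and 88.7 on DMBA, Plxna2 at 36.7 and 49.3 at 1 week, against 120.2 and 9.69 on DMBA, and Plxna3 at 7.66 and 6.70 at 1 week, against 41.6 and 6.28 on DMBA. Plxna2 was called higher without on-DMBA replicate 1 (log2 difference 2.08, adjusted p = 0.00662) and lower without on-DMBA replicate 2 (-1.49, adjusted p = 0.0311; up to 1.00 over the alternatives), so its direction was that of the on-DMBA library kept. Nrp1, the co-receptor gene of Sema3A, was at 297 and 419 at 1 week, against 11.4 and 904 on DMBA, and overlapped. Nrp2 was at 189 and 239 at 1 week, against 101 and 152 on DMBA, higher without overlap (log2 difference 0.78, SE 0.53) and not passing.

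None of the 8 ephrins separated the groups, and 6 of the 8 were highest in on-DMBA replicate 1. Among all genes tested, 14.0% were higher and 9.14% were lower without overlap, and 41.7% were highest in that library. Efna1, a ligand of EphA2 in epithelia, was at 26.4 and 29.4 scaled CPM at 1 week, against 86.8 and 8.44 on DMBA, so both 1-week libraries lay between the on-DMBA libraries. Efna3, Efna4 and Efna5, the other A-type ligands high in that library, showed the same order. Efna3 was at 4.69 and 2.42 at 1 week, against 31.5 and 0.718 on DMBA, Efna4 at 10.3 and 3.71 at 1 week, against 19.9 and 2.87 on DMBA, and Efna5 at 8.44 and 7.13 at 1 week, against 71.8 and 5.20 on DMBA. Among the B-type ligands, which span the membrane, Efnb1 was at 39.7 and 48.2 at 1 week, against 178 and 32.8 on DMBA. Efnb2, the ligand of EphB4 known from arterial endothelium, was at 27.4 and 42.5 at 1 week, against 52.0 and 21.7 on DMBA, with a log2 difference of 0.019 (SE 0.65). Efna2 and Efnb3 stayed between 1.14 and 6.72. Without on-DMBA replicate 2, Efna1, Efna3, Efna4, Efna5 and Efnb1 were called lower, and without on-DMBA replicate 1 no ephrin was called.

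Epha1, Epha2 and Epha4 had the same order of libraries as most ephrins. Epha2, an Eph receptor of keratinocytes, was at 49.7 and 59.0 scaled CPM at 1 week, against 182 and 19.0 on DMBA. Epha4 was at 27.7 and 28.5 at 1 week, against 152 and 19.9 on DMBA, and Epha1, an epithelial family member, was at 14.4 and 9.27 at 1 week, against 102 and 4.31 on DMBA. In all 3 the 1-week libraries lay between the on-DMBA libraries. Epha3, known from mesenchymal cells, was the reverse, at 15.8 and 14.0 at 1 week, against 0.356 (3 reads) and 27.1 on DMBA. Epha6 was higher at 1 week without overlap, at 1.41 and 1.14 against 0.237 and 0.897 on DMBA, but this rests on 9 and 8 reads at 1 week, against 2 and 5 on DMBA. Epha5, Epha7, Epha8 and Epha10, the last a receptor without kinase activity, ranged from 0.237 to 7.35.

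Of the EphB receptors, 4 of 5 were highest in on-DMBA replicate 1 and all 5 overlapped. Among all genes tested, 41.7% were highest in that library, and 14.0% were higher and 9.14% lower without overlap. Ephb4, the receptor of ephrin-B2 known from veins, was at 80.6 and 109 at 1 week, against 137 and 44.9 on DMBA. Ephb6, which lacks kinase activity, was at 25.0 and 19.7 at 1 week, against 152 and 9.51 on DMBA, and Ephb3 was at 22.8 and 20.5 at 1 week, against 70.5 and 18.3 on DMBA. Both were called lower without on-DMBA replicate 2 and neither was called without on-DMBA replicate 1. Ephb2 was at 62.4 and 30.1 at 1 week, against 51.5 and 29.8 on DMBA, a difference within the spread of the 1-week libraries. Ephb1 ranged from 3.42 to 9.02.

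A few ligand and receptor pairs known to bind are set side by side as examples, chosen after their values were seen. Sema7a and Plxnc1 were lowest in on-DMBA replicate 1 (1.54 and 0.594) and at 133 and 94.4 in on-DMBA replicate 2, with the 1-week libraries between 52.2 and 111. Efna1 and Epha2 were both highest in on-DMBA replicate 1 (86.8 and 182) and lowest in on-DMBA replicate 2 (8.44 and 19.0). Efnb2 and Ephb4 were likewise both highest in on-DMBA replicate 1 (52.0 and 137) and lowest in on-DMBA replicate 2 (21.7 and 44.9). Sema4d and Plxnb1 differed, since Sema4d ranged only from 30.9 to 44.4 while Plxnb1 ranged from 16.9 to 261. Sema3e and Plxnd1 also differed: Plxnd1 was highest in the 1-week libraries (294 and 361), and Sema3e in on-DMBA replicate 2 (17.1). On-DMBA replicate 1 was the highest library for 41.7% of all genes tested and the lowest for 37.5%, so a shared extreme there is common. With 4 libraries no correlation was computed.

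Between the 1-week libraries the median absolute log2 difference of the 51 genes was 0.46, close to the 0.51 of all genes tested. Between the on-DMBA libraries it was 2.21, against 1.02 for all genes. On-DMBA replicate 1 was the highest library for 22 of the 51 genes (43.1%, against 41.7% of all genes) and the lowest for 19 (37.3%, against 37.5%), shares near the background, and for 10 it lay between other libraries. By role it was highest for 6 of 8 ephrins, 4 of 5 EphB and 5 of 9 plexins, and lowest for 5 of 7 class 3 semaphorins, 4 of 4 class 6 semaphorins and 4 of 9 plexins. The 9 EphA genes were evenly divided, with that library highest for 3, lowest for 3 and between for 3. The 9 semaphorins of classes 4, 5 and 7 were divided in the same way. The epithelial marker sum was highest in that library (56574) and the fibroblast, macrophage and endothelial sums were lowest there (181, 64.7 and 6.77).

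Leaving out either on-DMBA library gave sets of calls that shared 1 gene in the same direction, Sema6a. Without on-DMBA replicate 1 limma called 3 of the 51 genes higher (Sema6a, Sema3f and Plxna2; 5.88%, against 2.35% of all genes) and 1 lower (Plxnb3; 1.96%, against 0.999%). Without on-DMBA replicate 2 it called 11 higher (21.6%, against 14.3%) and 15 lower (29.4%, against 10.0%). The 11 were Sema3a, Sema3b, Sema3g, Sema6a, Sema6b, Sema6c, Sema7a, Plxna4, Plxnc1, Plxnd1 and Epha3. The 15 were Sema3c, Sema4b, Plxna2, Plxna3, Plxnb1, Efna1, Efna3, Efna4, Efna5, Efnb1, Epha1, Epha2, Epha4, Ephb3 and Ephb6. These calls set 2 libraries against 1, whose spread was taken to be that of the other group. With either 1-week library left out, limma called 0 of the 51. The median difference of the 51 genes was 0.34 without on-DMBA replicate 1, against 0.035 over all genes, and leaving out replicate 2 in its place gave 0.093, against -0.059. For ephrins and Eph receptors together the 2 medians were 0.45 and -0.78, opposite in sign, and for semaphorins 0.35 and 1.27.

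**Figure D3:**
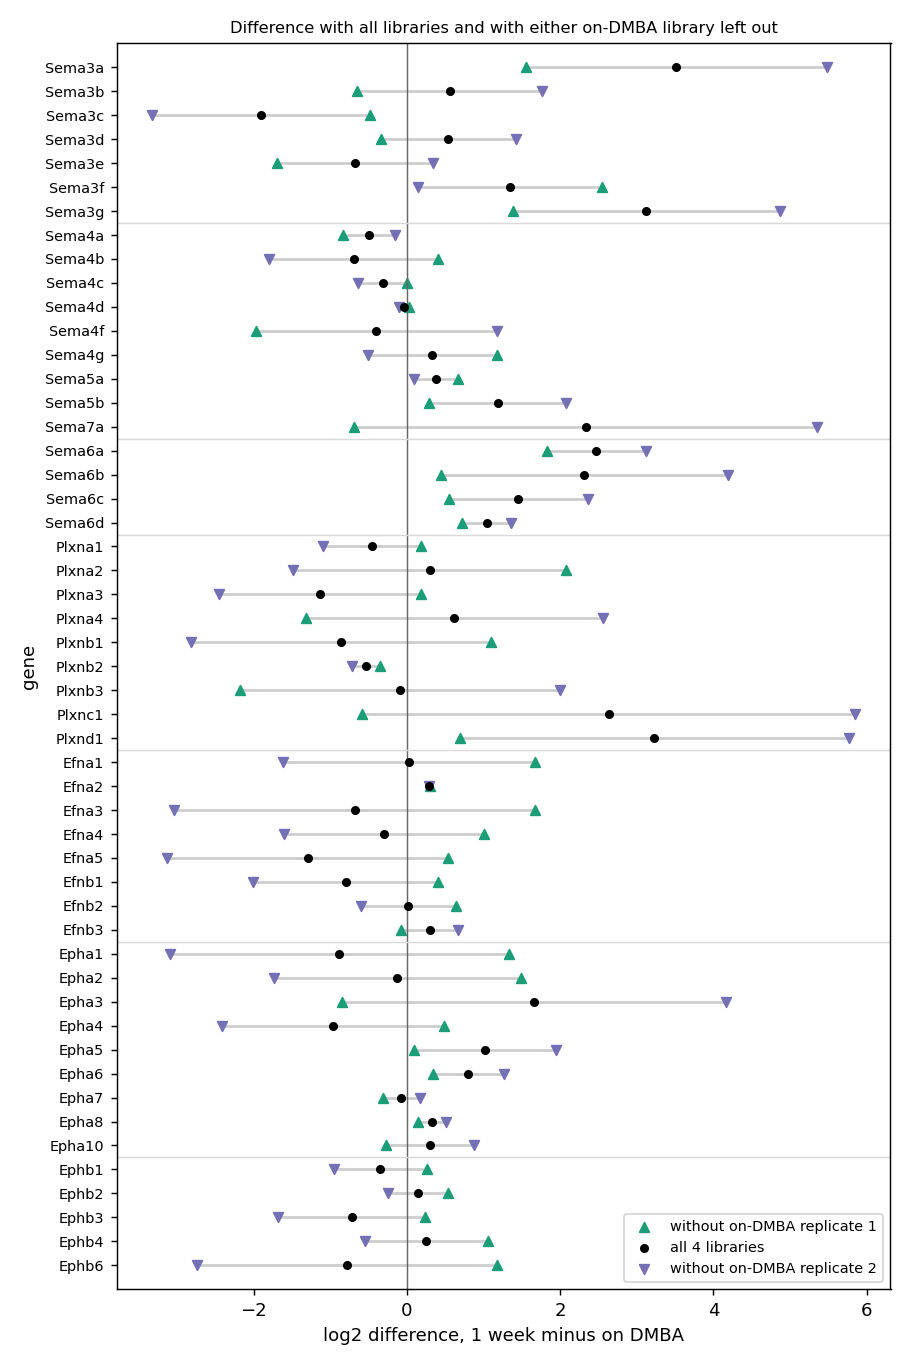
Log2 difference (1 week minus on DMBA) of each gene with all 4 libraries (black points) and after leaving out on-DMBA replicate 1 (upward triangles) or on-DMBA replicate 2 (downward triangles). The triangles lie on the same side of 0 for the class 6 semaphorins (Sema6a 1.83 and 3.12) and on opposite sides for most ephrins and Eph receptors (Efna1 1.67 and -1.62). Genes without overlap must have both triangles on the same side, so this restates the order of the libraries.

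Per kilobase of exon, which allows genes to be compared with each other, plexins had the largest sum of the 7 role classes in both 1-week libraries and in on-DMBA replicate 2. This ranking depends on the division used, since semaphorins were split over several classes and class sizes ran from 4 to 9 genes. The summed level of the 9 plexins was 115 and 135 scaled CPM per kb at 1 week, against 148 and 122 on DMBA, so the sum varied far less than the genes within it. Plxnd1 led it at 1 week (36.9% and 38.8% of the sum) and Plxnb2 in both on-DMBA libraries (47.9% in replicate 2, and more in replicate 1). Among class 3 semaphorins Sema3f led at 1 week (45.3% and 38.6%) and Sema3c on DMBA (78.6% and 34.9%), with sums of 41.2 and 48.4 at 1 week, against 89.1 and 27.6 on DMBA. The class 6 sum was 21.8 and 26.4 at 1 week, against 4.74 and 14.3 on DMBA, the one class sum higher at 1 week without overlap. The sum of classes 4, 5 and 7 was 72.5 and 89.2 at 1 week, against 87.2 and 100.5 on DMBA. The ephrin sum was 47.2 and 46.2 at 1 week, against 158 and 24.8 on DMBA, with Efna1 leading at 1 week (30.6% and 34.8%) and Efnb1 on DMBA (34.5% and 40.7%). Epha2 led the EphA genes in all 4 libraries, whose sum was 29.5 and 26.0 at 1 week, against 102 and 16.6 on DMBA. The EphB sum was 35.7 and 36.9 at 1 week, against 90.0 and 19.3 on DMBA, with Ephb4 leading in all libraries but on-DMBA replicate 1, where Ephb6 led.

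**Figure D4:**
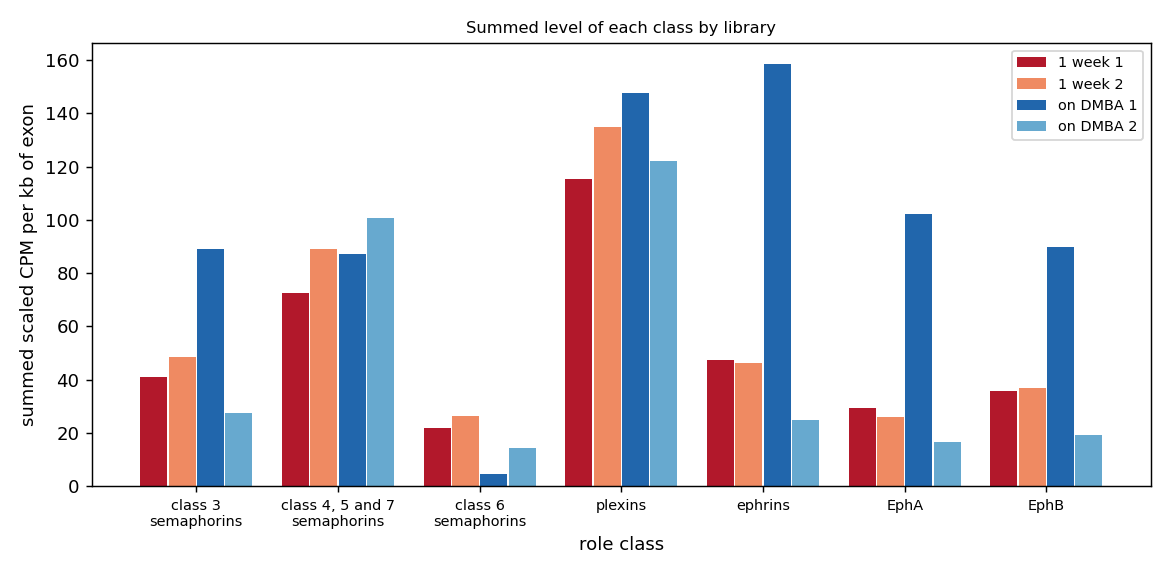
Summed scaled CPM per kb of exon of each role class in each library, with bars from 0. The ephrin, EphA and EphB bars of on-DMBA replicate 1 (158, 102 and 90.0) stand above the other bars of their class, and the class 6 semaphorin bars are higher at 1 week (21.8 and 26.4) than on DMBA (4.74 and 14.3).

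Of 50 listed co-receptors, shedding proteases and downstream signalling genes of these families, 49 were in the table and all 49 were tested. None passed in limma with all libraries (0 higher and 0 lower), and 2 had an unadjusted p under 0.05 (4.08%, against 2.48% of all genes tested). Without overlap, 8 were higher at 1 week (16.3%, against 14.0% of all genes) and 5 were lower (10.2%, against 9.14%), shares near the background. Their median log2 difference was 0.11, against -0.024 over all genes. L1cam, a neural adhesion molecule that joins the Sema3A receptor complex, was at 3.75 and 7.84 scaled CPM at 1 week, against 28.6 and 17.8 on DMBA (log2 difference -1.95, SE 0.69). The groups did not overlap, and its adjusted p was 1.00 by limma. Farp1, an exchange factor that acts with plexin A4 in neurons, was at 30.01 and 30.2 at 1 week, against 9.38 and 17.9 on DMBA. Met, a receptor tyrosine kinase that can join plexin B1, is named here after its values were seen. Met was at 43.0 and 51.6 at 1 week, against 218 and 8.44 on DMBA. Its log2 difference was 2.4 without on-DMBA replicate 1 and -2.2 in the fit without on-DMBA replicate 2. In that fit 13 listed genes were called higher (26.5%, against 14.3% of all genes) and 8 lower (16.3%, against 10.0%).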

How the data were processed

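For 4 RNA-seq libraries the deposited file lists 22222 gene symbols, each with the authors' normalised signal. Per the labels' protocols, RNA of sorted cells was depleted of ribosomal RNA and sequenced with a stranded dUTP method. Per the submitters' processing notes, CASAVA 1.8.2, TopHat2 2.1, HTSeq and edgeR 3.2.3 were used, with build mm9, in roles the notes do not state; the sources used here give no annotation or strand setting, so reads of overlapping antisense genes may be mixed. The deposited signal is a CPM against a scaled library size, since the columns sum to between 867697 and 1149287. Every value (100%) was a whole multiple of a step per library at a tolerance of 0.01 reads, which gave back whole reads. A floor of 3 reads is 0.469 and 0.428 scaled CPM at 1 week, against 0.356 and 0.538 on DMBA, and covers counting error only.

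limma 3.58.1 (R 4.3.3), with eBayes and its trend, was run two-sided on log2(scaled CPM + 0.5) of genes reaching 1 scaled CPM in 2 libraries or more, Benjamini-Hochberg adjusted over all 15419 genes, at 0.05. Fold changes are on this scale and understate the change of low genes. With 2 mice a group, the smallest two-sided exact permutation p is 0.333. Mice are separate per the labels, so no block was used. edgeR 4.0.16 and DESeq2 1.42.0 on the recovered reads, other pseudocounts, filters and scalings, a replicate block and leaving out each library were alternatives. The fitting functions were tested on simulated data with the same spread in both groups. That setting differs from these libraries, so it is no measure of power or of false calls here. Lengths are the union of exons of coding transcripts (GENCODE M21, GRCm38), matched for all 51 genes, and may differ from those the authors counted on. No coordinates are mixed with mm9.

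Per-library values are given for genes without overlap, with an unadjusted p under 0.05, called with an on-DMBA library left out, or among the 2 of highest mean in their role class, and for others where a sentence needs them. Of the 2 pathway genes with an unadjusted p under 0.05, 1 is not reported here. Members, lists and this rule were chosen with earlier results of these data known. Members of a family share sequence, so some reads may be split between paralogs.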

Additional observations from a re-analysis of the deposited data

How the results depend on the processing

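With only 2 mice a group and 1 on-DMBA library apart from the rest, leaving out on-DMBA replicate 1 turned the sign of 24 of the 51 genes and leaving out replicate 2 turned 10. Of the 51 genes, 14 kept their direction under every alternative run and 37 turned under at least 1, each of them on leaving out a library. The 11 genes without overlap kept theirs in all of them. On leaving out a library this was fixed in advance by their lack of overlap, so it adds no support. Leaving out each library in turn, limma called 0 to 2212 genes higher and 0 to 1549 lower, 0 to 11 and 0 to 15 of the 51, and 0 to 13 and 0 to 8 of the pathway list, and the median of the 51 ranged from -0.20 (without 1-week replicate 1) to 0.34. DESeq2 called 16 genes higher and 3 lower over all genes, none of the 51. The median of the 51 was -0.030 under quantile normalization, -0.020 in edgeR and -0.068 in DESeq2; quantile normalization moved the median of all genes to -0.15, against -0.024 as reported. With the replicate block limma called 285 genes higher and 3 lower. Among them were 2 of the 51 (Sema3a and Plxnd1, higher) and 1 pathway gene. The numbers mark different mice, and the deviations of equal numbers correlated at 0.0151 over genes. With 1 deviation per group this cannot show whether equal numbers also share a batch. The cause of these shifts between settings was not tested. Differences on leaving out a library turned in sign as follows. Among the semaphorins the difference spanned -0.65 to 1.77 for Sema3b, -0.34 to 1.42 for Sema3d, -1.70 to 0.33 for Sema3e, -1.80 to 0.41 for Sema4b, -0.64 to 0.00035 for Sema4c, -0.30 to 0.22 for Sema4d, -1.97 to 1.17 for Sema4f, -0.51 to 1.17 for Sema4g, -0.20 to 0.95 for Sema5a and -0.69 to 5.35 for Sema7a. Among the plexins it spanned -1.10 to 0.19 for Plxna1, -1.49 to 2.08 for Plxna2, -2.46 to 0.18 for Plxna3, -1.32 to 2.56 for Plxna4, -2.82 to 1.09 for Plxnb1, -2.18 to 2.00 for Plxnb3 and -0.59 to 5.85 for Plxnc1. Among the ephrins it spanned -1.62 to 1.67 for Efna1, -0.44 to 1.02 for Efna2, -3.04 to 1.68 for Efna3, -1.60 to 1.00 for Efna4, -3.13 to 0.53 for Efna5, -2.01 to 0.41 for Efnb1, -0.60 to 0.64 for Efnb2 and -0.41 to 1.01 for Efnb3. Among the Eph receptors it spanned -3.09 to 1.33 for Epha1, -1.05 to 1.65 for Epha10, -1.74 to 1.49 for Epha2, -0.85 to 4.17 for Epha3, -2.41 to 0.49 for Epha4, -0.32 to 0.17 for Epha7, -0.53 to 1.18 for Epha8, -0.96 to 0.26 for Ephb1, -0.38 to 0.66 for Ephb2, -1.68 to 0.24 for Ephb3, -0.54 to 1.05 for Ephb4 and -2.74 to 1.18 for Ephb6. Outside the families it spanned -1.36 to 4.89 for Nrp1 and -2.19 to 2.41 for Met. Under quantile normalization the sign turned for Efna2 (-0.18), Efnb3 (-0.38), Epha10 (-0.15), Epha2 (0.028), Epha8 (-0.19), Sema3d (-0.030), Sema4d (0.027) and Sema4g (-0.029). In edgeR the sign turned for Efna1 (-0.68), Efnb2 (-0.020), Plxna2 (-0.51), Plxna4 (-0.41), Sema4d (0.025), Nrp1 (-0.36) and Met (-1.16). In DESeq2 the sign turned for Efna1 (-0.73), Efnb2 (-0.068), Plxna2 (-0.55), Plxna4 (-0.46), Nrp1 (-0.41) and Met (-1.21). Under median ratio scaling the sign turned for Efna1 (-0.033) and Efnb2 (-0.037). With a pseudocount of 0.1 the sign turned for Plxnb3 (0.12).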
